A study of Saccharomyces cerevisiae with 48 samples.

Results

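The small subunit processome is the assembly that forms on the nascent pre-ribosomal RNA and folds, modifies and cuts it into the precursor of the small ribosomal subunit. Its proteins join as preformed subcomplexes. UtpA binds the growing transcript first, UtpB and the U3 small nucleolar ribonucleoprotein follow, and the RNA of U3 pairs with the pre-rRNA to hold it open until helicases and a GTPase release it. In budding yeast these genes belong to the ribosome biogenesis regulon, whose transcripts are known to be made together when growth conditions favour new ribosomes. The 44 genes described here were chosen by symbol from a list of UTP, NOP, IMP and related processome genes, 44 of 5332 tested genes, and each was represented by 1 probe set. All 44 were above the background set by fission yeast probe sets. They fell into 7 roles: UtpA with 7 genes, UtpB with 6, UTP22 with RRP7, the U3 proteins with 4, the MPP10 complex with 3, the helicases with BMS1 and RCL1 with 6, and 16 other assembly factors.

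RNA came from 1 fermenter run in continuous mode with the Saccharomyces cerevisiae strain IFO0233, in which respiration oscillates with a usual period of 40 to 45 min. It was sampled every 4 min onto 48 Affymetrix Yeast 2.0 arrays. The phenelzine group held 37 arrays from 14.6 to 17.0 h after inoculation, taken after addition of phenelzine, an inhibitor of monoamine oxidase. The control group held the 11 arrays before it, from 13.8 to 14.5 h. The stated aim of the addition was to double the period of the oscillation. Both groups were the same strain and vessel, and the groups differ in time as well as in phenelzine. The control hours and the earlier phenelzine hours, from 14.6 h to just before 16 h, precede the window of 16 to 24 h. Oscillation usually begins in that window in this system, per the growth protocol. No untreated culture covered the later hours (0 cultures), so phenelzine and time cannot be told apart. Successive arrays stand in for replicates, and a p-value therefore reflects scatter along 1 time course, with no separate culture behind it. All times below are minutes from the first phenelzine array, and all levels are log2 signal after quantile normalization. In bulk RNA, fewer cells making a transcript and less of it per cell cannot be told apart. Levels of different probe sets were not compared with each other as amounts of transcript. Mean signal served to pick a gene to describe in each role and was set against amplitude across genes.

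The 44 genes rose and fell as a block once in each cycle, before and after phenelzine. After the addition their mean, each gene taken relative to its own mean, was -0.49 at 4 min, 1.35 at 28 min and -1.01 at 48 min. The second cycle topped out at 1.25 at 76 min, and a trough of -1.04 followed at 96 and 100 min. The third rise reached 1.06 at 128 min and 1.10 at 132 min. In the control arrays the mean was -0.66 at -40 min and 1.06 at -16 min. The SD over the 44 genes was between 0.17 and 0.41 on every array, below the swing of the mean.

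**Figure D1:**
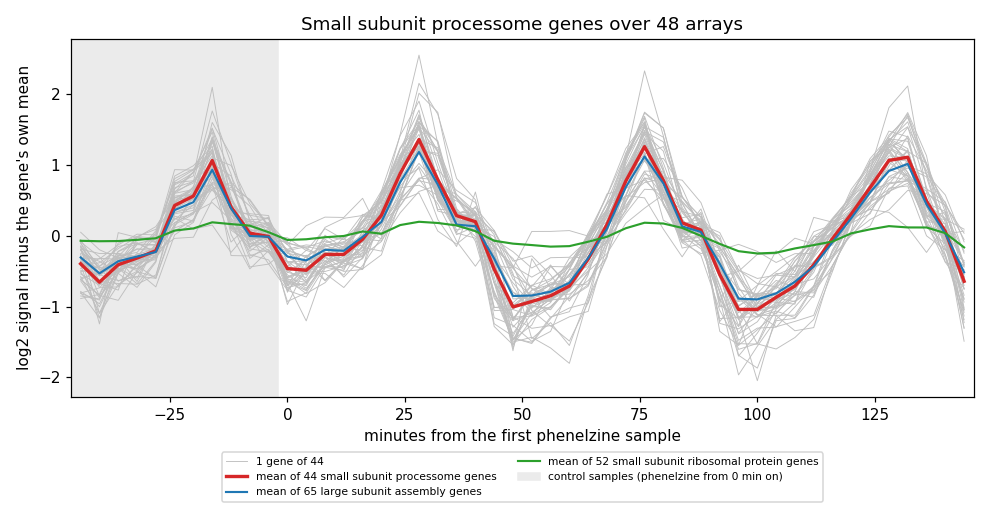
Log2 signal minus each gene's own mean over the 48 arrays (vertical axis) against minutes from the first phenelzine array (horizontal axis), with 1 grey line per processome gene, their mean in red, and the means of 65 large subunit assembly genes and 52 small subunit ribosomal protein genes in blue and green. Control arrays lie on the shaded ground. The red line has 4 crests, with tops of 1.06 at -16 min and 1.35, 1.25 and 1.10 after phenelzine, and its troughs reach -1.01 and -1.04 only from 48 min on.

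The rhythm after phenelzine was tested with a 48-min cosine and sine in limma. All 44 genes passed a Benjamini-Hochberg adjusted p of 0.05, where 87.8% of all tested probe sets did, so the count sits close to the background. The amplitude, the fitted height from mean to crest, had a median of 0.93 over the 44 genes and ranged from 0.31 to 1.47, against a median of 0.23 over all tested probe sets. The control rhythm, tested at 40 min over 11 arrays that span a single rise and fall, passed in 43 of the 44 genes and in 66.7% of all tested probe sets. Its median amplitude was 0.69 over the 44 genes and 0.21 over all tested probe sets. RRP7 was the exception in control, with an amplitude of 0.20 ± 0.08 (SE) and an adjusted p of 0.101.

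UTP21 (YLR409C), a WD-repeat protein of UtpB, had the widest fitted swing after phenelzine. Its lowest, median and highest levels were 6.59, 8.26 and 10.61 in phenelzine arrays, against 7.37, 8.57 and 10.22 in control arrays. The phenelzine range enclosed the control range at both ends. The amplitude was 1.47 ± 0.10 (SE) in phenelzine arrays (limma, adjusted p = 1.4e-14) and 1.10 ± 0.11 in control arrays (adjusted p = 3.2e-05). DHR2 (YKL078W), a DEAH-box RNA helicase, ran from 6.36 over a median of 7.56 to 10.40 in phenelzine arrays, and from 6.69 over 7.48 to 9.94 in control arrays. Its amplitude was 1.41 ± 0.12 after phenelzine and 1.18 ± 0.16 in control. NOP14 (YDL148C), a factor that works with NOC4, had levels of 7.51, 9.00 and 11.12 in phenelzine arrays and 8.20, 9.08 and 10.71 in control arrays. These 3 genes had the largest amplitudes of the 44 in both groups, and in each the groups overlapped over the whole control range. Across the 44 genes the phenelzine amplitude correlated with mean level at r = -0.42 (Spearman's rho -0.40), so dimmer genes tended to have larger amplitudes. The part of signal level in the amplitude ranks of genes and roles was not tested.

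The smallest swings after phenelzine were those of RRP7, MPP10 and UTP20. RRP7 (YCL031C), which pairs with UTP22 in a module of the processome, had a lowest, median and highest level of 9.13, 9.95 and 10.49 in phenelzine arrays and of 9.38, 9.79 and 10.14 in control arrays. Its phenelzine rhythm was small but passed, with an amplitude of 0.31 ± 0.06 (SE, adjusted p = 2.0e-05). MPP10 (YJR002W), the scaffold that carries IMP3 and IMP4, ranged from 9.15 to 10.42 around 9.51 in phenelzine arrays and from 9.17 to 10.08 around 9.52 in control arrays. Its amplitude was 0.40 ± 0.05 after phenelzine, while those of its partners IMP3 and IMP4 were 1.01 and 0.74. UTP20 (YBL004W), a very large repeat protein, ranged from 10.67 to 12.31 around 11.55 in phenelzine arrays and from 11.28 to 12.28 around 11.58 in control arrays. In control, UTP30 took the place of UTP20 among the 3 smallest, at 0.41 ± 0.07.

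**Figure D2:**
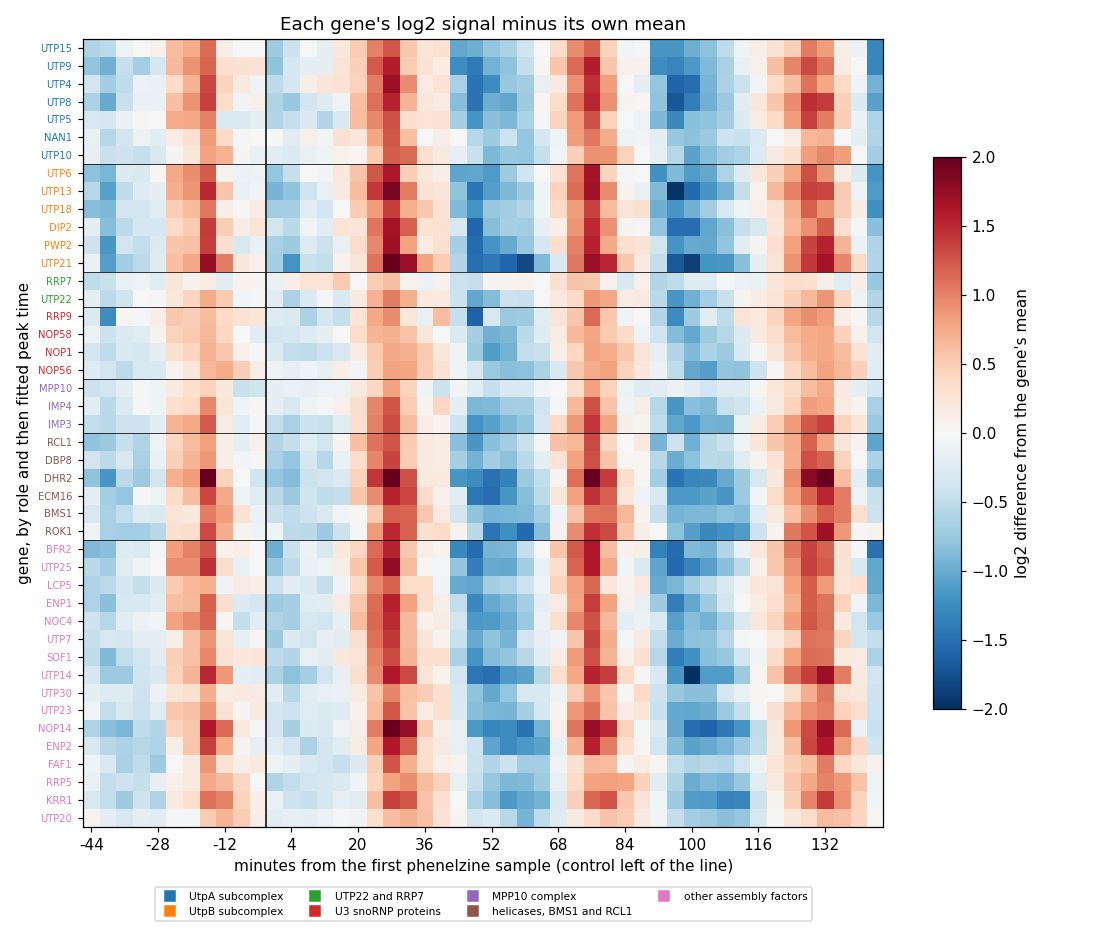
Each row is 1 of the 44 genes and each column 1 array in time order, coloured by log2 signal minus the gene's own mean, with rows grouped by role and ordered by fitted peak time. The vertical line divides control arrays (left) from phenelzine arrays. Nearly every row is red at -16, 28, 76 and 128 to 132 min, the rows of RRP7 and MPP10 are pale, and the blue bands from 48 min and from 96 min are darker than those at -40 and 4 min.

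Among UtpA genes, UTP10, the largest protein of the subcomplex, had a lowest, median and highest level of 9.53, 10.54 and 11.81 in phenelzine arrays and of 10.14, 10.47 and 11.40 in control arrays. The 7 UtpA genes had a median phenelzine amplitude of 0.93, from 0.60 in NAN1 to 1.16 in UTP8. The 6 UtpB genes had a median amplitude of 1.05, and even the lowest, UTP18, stood at 0.95. UTP13 of UtpB ranged from 8.17 to 12.03 around 10.07 in phenelzine arrays and from 9.05 to 11.65 around 9.98 in control arrays. Its amplitude of 1.27 was the largest of its subcomplex after that of UTP21.

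UTP22 had levels of 9.21, 10.44 and 11.40 in phenelzine arrays and 9.85, 10.35 and 11.12 in control arrays, and its amplitude of 0.73 ± 0.06 (SE) was above the 0.31 of its partner RRP7. The U3 proteins had amplitudes within a narrow band, from 0.71 to 0.76. NOP1, the fibrillarin methyltransferase shared by all box C/D particles, had levels of 11.08, 12.23 and 13.01 in phenelzine arrays and 11.69, 12.18 and 12.89 in control arrays. Its amplitude was 0.76 ± 0.04 after phenelzine and 0.55 ± 0.05 in control. The helicases with BMS1 and RCL1 had a median amplitude of 1.05, from 0.87 in RCL1 to 1.41 in DHR2. BMS1, the GTPase that brings RCL1 to the particle, ranged from 9.71 to 11.84 around 10.55 in phenelzine arrays and from 10.00 to 11.66 around 10.53 in control arrays. The 16 other factors had a median of 0.95, led by NOP14 at 1.33 and UTP14, the activator of the helicase ECM16, at 1.29.

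Most genes had their highest array of a cycle at the same time point. In control 41 of 44 peaked at -16 min. In the first phenelzine cycle 42 peaked at 28 min, in the second 38 at 76 min, and in the third 19 at 128 min and 24 at 132 min. On the 3-point running mean 43 genes had 4 peaks. UTP20 had 3, since peaks less than 12 min from either end of the series were not counted. Its highest array of the third cycle was at 132 min. Over the 43 genes the intervals between peaks had medians of 44 min for the first (40 to 48), 48 min for the second (44 to 52) and 52 min for the third (52 to 56). The first of these intervals began in control and ended after phenelzine. The third interval was longer than the first in 43 of 43 genes. Intervals were not measured over all tested probe sets. These genes share arrays and are not independent, so the count does not set them apart from other genes. The mean profile gave 48, 48 and 52 min. Each interval is resolved only to the sampling step of 4 min.

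Within the shared crest the genes differed in time. Fitted peaks after phenelzine, on a 48-min cycle, had a median of 29.1 min and ran from 23.5 ± 1.4 min (SE) in RRP7 to 33.9 ± 0.64 min in UTP20. After RRP7 the earliest were UTP15 at 27.1 ± 0.66 min, a UtpA protein, and UTP6 at 27.2 ± 0.62 min, a UtpB protein. The latest beside UTP20 were KRR1 at 33.1 ± 0.56 min, a KH-domain factor, and RRP5 at 32.9 ± 0.44 min, a protein that serves both subunits. The gap of UTP15 and UTP6 to KRR1 and RRP5 exceeded these errors, which reflect scatter along 1 time course. These genes were picked as the extremes of the fitted times. Neighbours such as UTP15 and UTP6, or KRR1 and RRP5, differed by less than their errors. In control the median fitted peak was at -17.4 min, and the range ran from -21.0 min in UTP5 to -12.5 min in UTP20. MPP10 at -20.4 min and NOC4 at -20.1 min were next to UTP5 at the early end, and FAF1 at -13.6 min and NOP56 at -14.2 min stood next to UTP20 at the late end.

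The order was broadly kept in separate sets of arrays, but not at the early end between control and phenelzine. Across the 44 genes, peak times after phenelzine and in control correlated at r = 0.83 (Spearman's rho 0.83), and at r = 0.85 without RRP7. The earliest genes in control, UTP5, MPP10 and NOC4, peaked at 28.5, 28.8 and 28.4 min after phenelzine, near the median of 29.1 min. Peak times from the last 19 and the first 18 phenelzine arrays correlated at r = 0.94. UTP20 peaked at 34.67 min in the last 19 and 33.04 min in the first 18 arrays, and UTP15 at 28.21 and 26.52 min. Amplitudes after phenelzine and in control correlated at r = 0.96. These are correlations across genes of 1 culture, given as descriptions, and genes that share arrays are not independent.

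By role, the median fitted peak after phenelzine was 26.2 min for UTP22 and RRP7, 28.2 min for UtpA, 28.7 min for UtpB, 29.1 min for the MPP10 complex, 29.97 min for the helicases with BMS1 and RCL1, and 30.3 min for the U3 proteins and for the other factors. The roles overlapped. UTP10 at 31.3 min was later than the other 6 UtpA genes, which lay between 27.1 and 29.4 min. The U3 proteins were split, with RRP9, the protein specific to U3, at 28.5 min and NOP58 at 29.3 min, against NOP1 at 31.3 min and NOP56 at 32.8 min. ROK1 at 32.3 min was the latest of the helicases and RCL1 at 27.7 min the earliest of its group.

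**Figure D3:**
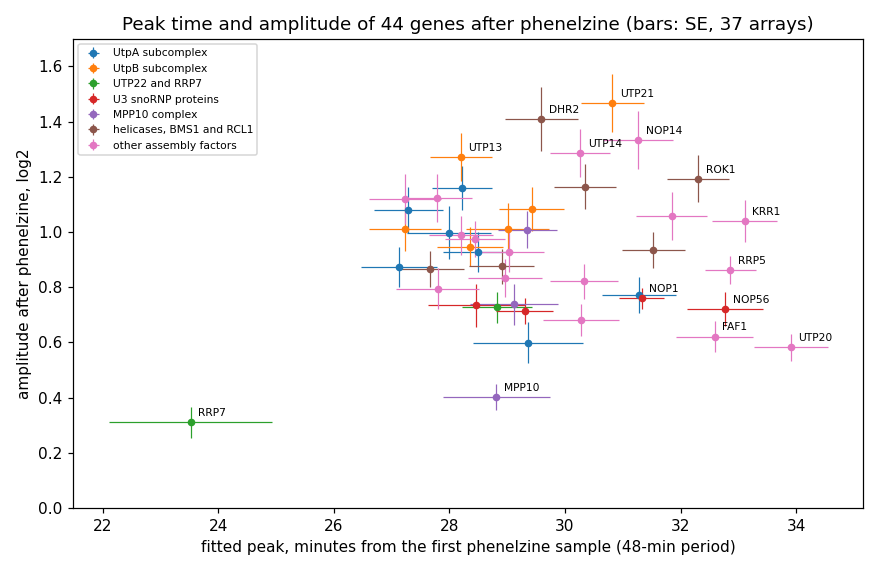
Fitted amplitude in log2 units (vertical axis) against fitted peak time in minutes from the first phenelzine array (horizontal axis) for the 44 genes over 37 phenelzine arrays, coloured by role, with bars for the SE. RRP7 stands alone at 23.5 min and 0.31, UTP21 and DHR2 are highest at 1.47 and 1.41, and UTP20 is latest at 33.9 min.

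The profiles of single genes followed the mean of the other 43 closely. The correlation over the 48 arrays was lowest for RRP7 at 0.63, UTP20 at 0.78, MPP10 at 0.86 and FAF1 at 0.86. Outside the 44, the 10 genes most like their mean profile had r from 0.983 to 0.992 over the 48 arrays. They were NSA2, PUF6, NOP12, ALB1, DRS1 and IPI3 of large subunit assembly, RPA49 and RPA43 of RNA polymerase I, the AAA ATPase RIX7 and the importin PSE1. No processome gene neighbours another in the R64 gene order. In 6 cases a processome gene neighbours a gene of another ribosome list, and the profiles of these pairs correlated at 0.81 (UTP13 with RSA3, NOC4 with RRP15), 0.84 (UTP9 with RIX1), 0.91 (LCP5 with NSA2), 0.92 (UTP13 with IFH1) and 0.93 (DBP8 with NMD3). Each of these was below the gene's correlation with the mean of the other 43, which was 0.92 for LCP5, 0.94 for UTP9, 0.95 for NOC4, 0.97 for DBP8 and 0.98 for UTP13. These measures are unlike, since a mean of 43 profiles carries less noise than the profile of a single neighbour. Whether neighbours were more alike than other pairs of single genes was not tested.

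The question whether the level differed between phenelzine and control was tested over all 48 arrays. None of the 44 genes passed (limma, adjusted p), while 0.465% of all tested probe sets did, 25 in number, and 507 had an unadjusted p under 0.05. The median difference, phenelzine minus control, was -0.06 over the 44 genes, from -0.24 in UTP25 to 0.12 in RRP7, and -0.0042 over all tested probe sets. The sample titles carry running array numbers, among which 91 is not used, and a suffix. The median was 0.00018 on arrays before number 91 and -0.13 without the 7 arrays of suffix 02. The levels of all 44 genes overlapped between the groups. Such overlap was not counted over all tested probe sets, so it does not set the 44 genes apart from other genes. The swing within each group is part of the error of this test. The SD of RRP7 was 0.33 in phenelzine and 0.25 in control arrays, against a difference of 0.12.

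Pairing arrays about 1 cycle apart takes out part of that swing, though the members of a pair were not at the same measured phase, an angle that all tested probe sets except the 44 give each array. The first phenelzine cycle (0 to 40 min) was set against control arrays 44 min earlier, in 11 pairs whose measured phases differed by up to 21.2 degrees. Of the 44 genes 16 were higher, where 4.04% of all tested probe sets were, and 0 were lower, where 4.45% were. The median difference was 0.16 over the 44 genes, with 43 above 0, and -0.0058 over all tested probe sets. The largest was that of NOP14, 0.31 ± 0.07 (SE, limma adjusted p = 0.0200), with 10 of 11 pairs higher. DHR2 was higher by 0.30 ± 0.09 (adjusted p = 0.0394) and RRP7 by 0.29 ± 0.08 (adjusted p = 0.0333), in 10 and 9 of 11 pairs. The 16 genes included 4 of 6 UtpB genes (UTP6, UTP13, UTP18 and DIP2) and 3 of 7 UtpA genes (UTP4, UTP10 and NAN1). The rise was shared with related genes. Of 65 large subunit assembly genes 17 were higher and 0 lower, with 62 above 0 and a median of 0.15. Of 44 other small subunit assembly genes 5 were higher and 0 lower, with 37 above 0 and a median of 0.12.

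The pair differences were largest from 24 min on. The mean of the 44 genes differed by 0.32, 0.30 and 0.39 in the pairs ending at 24, 28 and 32 min, and all 44 genes were higher in the first 2 of these. It differed by 0.17, 0.14 and 0.16 in the pairs ending at 4, 8 and 16 min. In the pairs ending at 0, 12 and 20 min it differed by -0.07, 0.05 and -0.14. The measured phase of the later array minus that of its partner was -19.96 degrees in the pair ending at 20 min, 21.2 degrees at 24 min, -5.22 degrees at 28 min and -14.89 degrees at 32 min. Of the rRNA control probe sets, as deposited, the 18S 5' set read 11.64, 11.97 and 11.64 at 24, 28 and 32 min. Its mean in control arrays was 10.39. The 18S 3' and 25S 5' sets were also above every control array at these times. The 25S 3' set was not, at 10.95, 11.77 and 11.89 against 12.97 in the control array at -44 min. The part of these readings in the differences was not tested. The highest array of the first phenelzine cycle was above the highest control array in 44 of 44 genes. The median rise was 0.31 (0.03 to 0.54). Of all tested probe sets 42.7% had a lower maximum than in control, with a median difference of 0.02. The count depended on scaling, lag and phase. With the measured phase in the paired fit 2 genes passed, with a median of 0.10, and on the 9 pairs within 15 degrees 15 passed, with a median of 0.19. With signals as deposited, where the median of all tested probe sets moved to -0.13, 0 of the 44 genes passed, with a median of 0.06, and 23 of 44 had a higher crest. At lags of 40 and 48 min 0 passed, with medians of 0.14 and 0.21, and 5 passed without the pair ending at 28 min.

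The second phenelzine cycle (48 to 88 min) was lower than the first (0 to 40 min) in 29 of the 44 genes and higher in 0, over 11 pairs 48 min apart. Of all tested probe sets 10.9% were lower and 11% higher. All 44 estimates were below 0, with a median of -0.25, against 0.0021 over all tested probe sets. UTP21 had the largest difference, -0.57 ± 0.11 (SE, limma adjusted p = 0.0032), with 11 of 11 pairs lower. UTP4, a WD-repeat protein of UtpA, differed by -0.50 ± 0.09 (adjusted p = 0.0022), also lower in 11 of 11 pairs. NOP14 followed at -0.46 ± 0.11 (adjusted p = 0.0091). The 29 included 5 of 7 UtpA genes, 5 of 6 UtpB genes, 4 of 6 of the helicase group, 12 of 16 other factors, 2 of 4 U3 proteins and 1 of 3 genes of the MPP10 complex. UTP22 and RRP7 did not pass, at -0.16 and -0.10.

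The second cycle differed from the first in its trough and little in its crest. In the pairs ending at 48, 52, 56 and 60 min the mean of the 44 genes differed by -0.54, -0.44, -0.58 and -0.45 from that 48 min earlier. The arrays at 48 and 52 min were 39.6 and 19.1 degrees ahead of their partners in measured phase, so these pairs compare different places in the cycle, while the pairs ending at 56 and 60 min differed by 2.76 and -2.97 degrees. In the pairs ending at 72 to 88 min it lay between -0.12 and -0.01. The lowest array of the second cycle was below that of the first in 44 of 44 genes, by a median of -0.58 (-1.04 to -0.03), where 56.7% of all tested probe sets had a lower minimum, with a median of -0.02. The cycle windows for these extremes were set after the profiles were seen, with 11 arrays in the first and 12 in the second. The highest array moved by a median of -0.07, lower in 34 and higher in 10 genes. Of all tested probe sets 41.3% had a lower maximum, with a median difference of 0.03. On the 9 pairs within 15 degrees 17 genes passed, all lower, with a median of -0.20, and with the measured phase in the paired fit 15 passed, all lower, with a median of -0.25. With signals as deposited the count that passed was 4, all lower, and 44 of 44 troughs were still lower. At lags of 44 and 52 min 0 passed, with medians of -0.25 and -0.24. These lags did not keep to the first phenelzine cycle. At 44 min the array at 88 min was paired with that at 44 min, in the second window. At 52 min the array at 48 min was paired with the control array at -4 min.

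**Figure D4:**
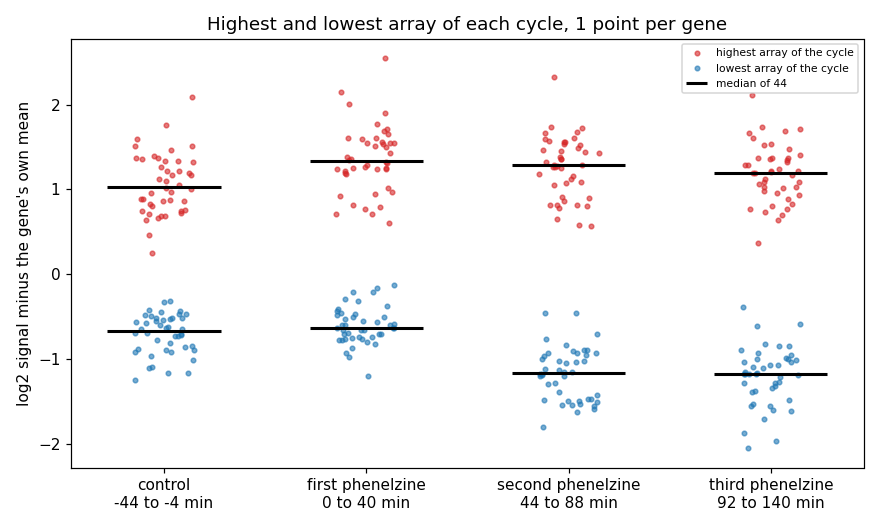
Highest (red) and lowest (blue) array of each cycle as log2 signal minus the gene's own mean, 1 point per gene, with black bars at the median of 44, for control and the 3 phenelzine cycles in time order. The blue points of the second phenelzine cycle lie lower than those of the first, with a median difference of -0.58, and those of the third stay near them, while the red points differ by medians of 0.31 or less in size between successive cycles.

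The swing within a cycle is the ratio of the highest to the lowest array, over windows of 11, 11, 12 and 13 arrays. Its median over the 44 genes was 3.36-fold in control, 3.88-fold in the first phenelzine cycle, 5.51-fold in the second and 5.09-fold in the third. DHR2 had the widest swing in the first 3 of these windows, 9.53-fold in control, 10.6-fold in the first phenelzine cycle and 14.1-fold in the second. UTP14 had the widest in the third, 13.5-fold. RRP7 had the narrowest in all 4, between 1.66-fold and 2.03-fold.

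The third phenelzine cycle (100 to 140 min) was higher than the second (48 to 88 min), 52 min earlier, in 6 of the 44 genes and lower in 0. Of all tested probe sets 9.12% were higher and 7.32% lower. The 6 were UTP5, RRP9, DBP8, RCL1, ENP1 and LCP5. The share of 6 in 44 is near the background. RRP9 was higher by 0.31 ± 0.09 (SE, limma adjusted p = 0.0241), in 10 of 11 pairs. ENP1, a factor that travels with the pre-40S particle to the cytoplasm, was higher by 0.25 ± 0.06 (adjusted p = 0.0177). LCP5 was higher by 0.21 ± 0.06 (adjusted p = 0.0263). The median over the 44 genes was 0.11, with 39 above 0, and 0.0074 over all tested probe sets. On the 8 pairs within 15 degrees of measured phase 0 of the 44 genes passed, with a median of 0.10, and with the measured phase in the fit 0 passed, with a median of -0.01.

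The differences of the third cycle were spread over the cycle and changed sign. The mean of the 44 genes was higher by 0.33 and 0.31 in the pairs ending at 132 and 136 min, and by 0.30 and 0.29 in those ending at 112 and 116 min. It differed by -0.19 in the pair ending at 128 min. The measured phase of the later array minus that of its partner was -15.9 and -14.5 degrees at 132 and 136 min. At 112 and 116 min it was 11.8 and 7.94 degrees, and at 128 min it was -9.74 degrees. With signals as deposited, 30 genes passed as higher, with a median of 0.31, while the median of all tested probe sets was 0.19. Without the pair ending at 116 min 1 gene passed. All 11 arrays of this cycle were numbered after 91, against 2 of 11 in the second. The spiked dap control, a bacterial transcript added to follow the labelling reaction, had a 3' over 5' log2 ratio of 2.45 ± 0.23 (SD, n = 11) in the third cycle, against 1.76 ± 0.27 (SD, n = 11) in the second. Its part in the result was not tested. The comparisons of successive cycles share arrays, since the first cycle serves in the earlier 2 of them and the second in the later 2.

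**Figure D5:**
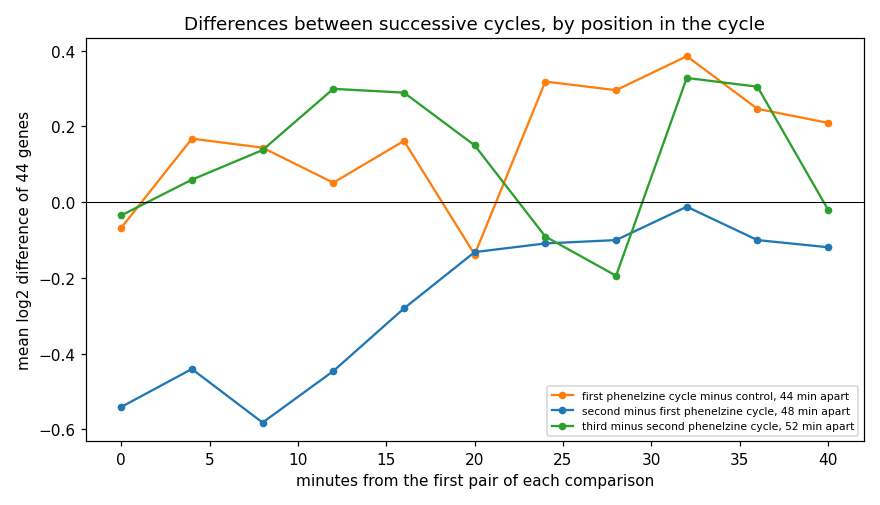
Mean log2 difference of the 44 genes (vertical axis) in each of 11 pairs by position in the cycle, in minutes from the first pair (horizontal axis), for the first phenelzine cycle minus control, the second minus the first, and the third minus the second. The line of the second minus the first starts at -0.54 and ends near -0.12, and that of the first minus control is highest at 0.39 in the pair ending at 32 min.

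A slope over the 37 phenelzine arrays, with the 48-min rhythm in the model, was below 0 and passed in 9 of the 44 genes, where 19.2% of all tested probe sets did so. It passed above 0 in 0 of the 44 genes and in 20.6% of all tested probe sets. The 9 were UTP4, UTP10, NAN1, DIP2, RRP7, NOP56, IMP4, UTP20 and NOP14. The share is near the background. NAN1, a UtpA protein also called UTP17, changed by -0.25 ± 0.06 per hour (SE, limma adjusted p = 0.0021). DIP2 of UtpB changed by -0.25 ± 0.09 per hour (adjusted p = 0.0203) and NOP14 by -0.25 ± 0.10 per hour (adjusted p = 0.0455). The median slope was -0.08 per hour over the 44 genes and 0.0026 over all tested probe sets. On arrays before number 91 the median was -0.34 per hour, with 0 of 44 above 0 and 6 genes past the threshold. There NAN1, DIP2 and NOP14 had slopes of -0.40, -0.45 and -0.60 per hour and did not pass (limma adjusted p = 0.119, 0.127 and 0.0843). With signals as deposited 1 gene passed, as higher, with a median of 0.0070, and without the rhythm terms 0 did, with a median of 0.06 and 34 above 0. NOP14 then had a slope of 0.02 per hour. The dap ratio was 1.95 ± 0.43 (SD, n = 37) over these arrays, 16 of them numbered after 91, and its part in the slopes was not tested.

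The shape of the rhythm was compared between groups on the measured phase of each array, taken from the leading 2 principal components, which takes a change of period out. The amplitude was larger in phenelzine than in control arrays in 44 of 44 genes, by a median of 0.24, against 68.1% of all tested probe sets and a median of 0.04. This was not particular to the 44. It was also larger in 62 of 65 large subunit assembly genes (median 0.20) and 38 of 44 other small subunit assembly genes (median 0.18). Of 16 RNA polymerase I genes 14 had a larger amplitude (median 0.18). For single genes the difference passed in 1 of the 44, UTP5, where 1.88% of all tested probe sets passed. UTP5, a UtpA protein, had an amplitude of 1.03 in phenelzine and 0.66 in control arrays and a crest 25.0 degrees later in phenelzine arrays (limma F test, adjusted p = 0.0155). The median shift of the 44 genes was 4.93 degrees. The amplitude difference was smallest in MPP10 and FAF1, at 0.01 and 0.02.

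Other genes of the pathway gave a scale for the 44. All 65 large subunit assembly genes were rhythmic after phenelzine, with a median amplitude of 0.81 and a median peak at 29.7 min. RIX1, of the complex that releases the pre-60S particle, had an amplitude of 1.46, and SSF1 had 1.44. In the second against the first phenelzine cycle 41 of the 65 were lower and 0 higher, with IPI3 at -0.46 ± 0.08 (SE, limma adjusted p = 0.0027). Of 44 other small subunit assembly genes, 42 were rhythmic, with a median amplitude of 0.75, and 16 were lower in the second cycle and 0 higher. RRP3, a DEAD-box protein, had an amplitude of 1.41, and NSR1, the yeast nucleolin, differed by -0.42 ± 0.10 in the second cycle (adjusted p = 0.0111). All 16 genes of RNA polymerase I were rhythmic, with a median of 0.74, and RPA49 was widest at 1.43. In the second cycle 6 of the 16 were lower and 1 higher.

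The small subunit ribosomal protein genes, whose products the processome assembles, swung far less. Of 52 tested, 43 were rhythmic after phenelzine, with a median amplitude of 0.13 and a highest of 0.53 in RPS9A, and their median peak was at 31.3 min. In the second against the first cycle 18 of them were lower and 0 higher. All 11 regulators were rhythmic after phenelzine, with a median amplitude of 0.21, and in the second cycle 2 were lower and 1 higher, with a median of 0.0050. TOD6, a repressor that binds promoters of ribosome biogenesis genes, was the exception in size. Its levels were 6.76, 8.24 and 10.32 (lowest, median and highest) in phenelzine arrays and 7.82, 8.19 and 10.05 in control arrays, with an amplitude of 1.25 ± 0.09 (SE). Its peak at 29.5 min lay near the median of the 44 genes. DOT6, its paralogue, had an amplitude of 0.21 and a peak at 6.3 min, and SFP1, an activator, one of 0.19 and a peak at 12.7 min. IFH1, a coactivator of ribosomal protein genes, had an amplitude of 0.56 and a peak at 29.3 min. In the second cycle IFH1 differed by -0.22 ± 0.06 (SE, limma adjusted p = 0.0151), TOD6 by -0.29 ± 0.10 (adjusted p = 0.0488) and FHL1, the partner of IFH1, by 0.16 (adjusted p = 0.0476).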

How the data were processed

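The deposited values were linear signal intensities for 10928 probe sets of 48 arrays, made by the authors with GCOS, per the submitters' processing notes. For GCOS, the version, algorithm and scaling target were not given in the sources used here. Signals under 1 were set to 1, log2 transformed and quantile normalized. Gene names came from GEO's annotation of the platform, updated with the R64 table, which served for names and gene order only. The 5372 probe sets (5332 genes) whose mean exceeded the 90th percentile of fission yeast probe sets were tested in limma 3.58.1 (R 4.3.3) with a variance trend over signal level, with Benjamini-Hochberg adjustment over all of them and a threshold of 0.05. Precision is limited by the number of arrays. Paired comparisons had the pair as a block. The measured phase came from principal components holding 46.94% and 19.12% of the variance. Amplitude and peak SEs are delta-method values. Peaks were local maxima of a 3-point running mean, highest within 12 min on each side and at least 12 min from either end of the series.

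The genes, lists, periods and lags were chosen with earlier results of these data known. Genes given in full were the member of highest mean signal in each role, the 3 largest differences each way past the threshold, the 3 extreme amplitudes and peaks at each end of each rhythm, up to 4 genes of each other list, and the 10 most similar genes. Other settings were scalings, a pseudocount of 50, no dim filter, no variance trend, other periods and lags, arrays left out, and, added after seeing the data, each pair left out, the measured phase in the paired fits and pairs within 15 degrees of it. Promoter sequences were not analysed here. Figures used matplotlib 3.10.9 in Python 3.11.15.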

Additional observations from a re-analysis of the deposited data

Results flagged for a closer look

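UTP5 differed between phenelzine and control arrays in its rhythm on the measured phase (limma F test, adjusted p = 0.0155), and the count of processome genes doing so was 0 with signals as deposited. Outside the main measurement, 3 control readings exceeded every control array. The 3' over 5' log2 ratio of the spiked dap control was 2.85 on the 120 min array, against at most 1.78 in control arrays. The median log2 signal of fission yeast probe sets, as deposited, was 3.13 on the 96 min array, against at most 2.32 in control arrays. The 18S rRNA 5' control probe set read 11.97 on the 28 min array, against at most 11.10 in control arrays. The 96 min and 28 min arrays hold the lowest or highest value of a cycle for many of the 44 genes, and the part of these readings in that was not tested.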

How the results depend on the processing

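Among settings run for counts of the 44 genes, 70 stayed within 1.5 times the count and 33 did not. Both rhythms and the level comparison did in all of theirs. With signals as deposited the counts became 0 for the first cycle against control, 4 for the second against the first, 30 for the third against the second, 1 for the slope and 0 for the rhythm difference. The first cycle gave 10 without the variance trend and 0 at lags of 40 and 48 min. The second gave 0 at lags of 44 and 52 min, where not every partner lay in the first phenelzine cycle. The third gave 0 at 48 min, where the array at 140 min was paired with that at 92 min, in the third window. It gave 1 at 56 min and 17 without arrays of name suffix 02. The slope gave 15 on the measured phase and 0 without rhythm terms, where NOP14 turned to 0.0225 per hour. The rhythm difference gave 2 at a 48-min period and 0 on arrays before number 91. With the measured phase in the paired fits, chosen after seeing the data, the 3 cycle counts were 2, 15 and 0, and LCP5 in the third turned to -0.0681; on pairs within 15 degrees they were 15, 17 and 0. The causes were not tested. Leaving out 1 pair at a time, a check chosen after seeing the data, gave 5 to 22 in the first cycle (10, 10, 9, 7 and 5 without the pairs ending at 4, 8, 16, 24 and 28 min), 22 to 32 in the second and 1 to 10 in the third (3, 2, 1, 2, 3 and 10 without those ending at 108, 112, 116, 132, 136 and 140 min). Over all tested probe sets these gave 161 to 625, 754 to 1162 and 617 to 1094. Without arrays after number 91, also chosen after seeing the data, the second cycle gave 29, and its 44 lower troughs held under 3 other scalings. Of 114 settings for single genes 72 kept their call, 40 lost it and 2 turned. Over all tested probe sets, as deposited, 1 was called for level, 948 for the first cycle, 83 for the second, and 1608 for the third, against 25, 456, 1173 and 883, and the rhythm difference called 0 in place of 1.88%. With columns centred on the median, level called 13, the third cycle 513 and the rhythm difference 23. The measured phase called 216, 649 and 4 for the 3 cycles, and pairs within 15 degrees 247, 815 and 250. Other lags called 4 and 6 for the first cycle, 34 and 8 for the second and 112 and 126 for the third. Level called 500 on the measured phase and 0 before number 91, the slope 657 without rhythm terms and 376 before number 91, against 2138, and the rhythm difference 965 at 48 min and 49 before number 91. The third cycle called 472 without suffix 02. Apart from the pairs of time points set by lag, no paired analysis was possible because the labels number no replicates.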
